A study of Mus musculus with 8 samples.

Results

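The genes described here encode 9 transcription factors known for maintaining hematopoietic stem cells (HSCs): Hlf, Mecom, Meis1, Hoxa9, Hoxb4, Runx1, Erg, Fli1 and Etv6. They were chosen by name, not by a measured value, from the 16729 genes listed in the expression tables of the series. Earlier results of these data were known when they were chosen. All 9 were listed in each of the 3 tables. RNA-seq had been performed on HSCs of C57BL/6 mice of WT genotype in 3 groups. Control mice received PBS, and their marrow gave 3 libraries (control BM HSC). Phenylhydrazine (PHZ) causes hemolytic anemia by lysing red cells and was injected intraperitoneally at 60 mg/kg on 2 consecutive days. Of these mice, marrow HSCs gave 3 libraries (PHZ BM HSC) and spleen HSCs 2 (PHZ SP HSC), both taken 3 days after the second injection. Mice of the study were 8 to 12 weeks old, and the HSC gate took CD150-positive, CD48-negative or low cells among lineage-negative, Sca-1-positive, c-kit-positive cells. HSCs from the spleens of mice without PHZ were not analysed here. In PHZ SP HSC versus control BM HSC, tissue and treatment therefore cannot be told apart. The labels do not say whether the libraries of a group came from separate mice, so p-values measure only the spread between these libraries, which may be technical.

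These factors bind DNA and together hold the stem cell program in place. Hlf is a PAR bZIP factor whose expression marks the most immature HSCs, and Mecom, a zinc finger factor, is needed for HSC quiescence and long-term repopulation. Meis1, Hoxa9 and Hoxb4 are homeodomain factors that act with PBX proteins, Runx1 binds DNA with its partner Cbfb, and Erg, Fli1 and Etv6 are ETS factors, of which Erg and Fli1 share sites with Runx1, Gata2, Tal1, Lyl1 and Lmo2.

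The promoter windows of a few of the genes are printed first, because they hold the letters that other factors of the group, or Gata2, are known to bind. RefSeq windows (build GRCm38.p6, the same assembly as mm10) were found for 8 of the 9 genes, 12 windows in all since Mecom, Runx1 and Erg have more than 1 start, and the 250 bases before each start were searched on both strands. The letters searched were CCGGAA for ETS factors, TGTGGT for RUNX factors, AGATAA for GATA factors and TGACAG for MEIS factors, together with TGATTNAT for a HOX-PBX pair and CATCTG for E-box factors. No 2 of the matches printed here overlap. The Hlf window holds 1 ETS match that begins 125 bases before the start. The window of the proximal Runx1 start holds 1 ETS match that begins 106 bases before it. The window of an internal Erg start holds 2 MEIS matches that begin 242 and 208 bases before it and 1 GATA match that begins 103 bases before it. Capitals mark the matches:
Hlf, chr11:90390918-90391167, minus strand: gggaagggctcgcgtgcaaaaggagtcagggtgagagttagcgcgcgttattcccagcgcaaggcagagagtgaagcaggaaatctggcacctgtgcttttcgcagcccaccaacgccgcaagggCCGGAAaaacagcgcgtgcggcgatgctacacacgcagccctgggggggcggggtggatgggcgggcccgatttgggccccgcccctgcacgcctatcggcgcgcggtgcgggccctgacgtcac
Runx1, proximal start, chr16:92697330-92697579, minus strand: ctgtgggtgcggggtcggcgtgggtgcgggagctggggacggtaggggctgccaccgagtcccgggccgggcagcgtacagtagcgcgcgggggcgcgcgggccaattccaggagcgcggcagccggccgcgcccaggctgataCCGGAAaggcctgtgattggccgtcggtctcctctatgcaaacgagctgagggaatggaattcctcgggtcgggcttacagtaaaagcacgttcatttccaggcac
Erg, internal start, chr16:95459349-95459598, minus strand: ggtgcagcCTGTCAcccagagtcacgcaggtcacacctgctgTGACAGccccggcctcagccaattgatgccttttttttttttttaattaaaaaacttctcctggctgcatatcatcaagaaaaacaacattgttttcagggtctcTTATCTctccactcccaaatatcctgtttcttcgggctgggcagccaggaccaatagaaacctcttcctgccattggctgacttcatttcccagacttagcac
The ETS letters were present in 3 of the 12 windows of these genes (Hlf, Meis1 and Runx1) and in 12.0% of all 32851 windows, and the RUNX letters in 1 (Meis1) and 14.05%. The MEIS letters were in 2 (Erg and Mecom) and 15.9%, the GATA letters in 1 (Erg) and 9.99%, the E-box letters in 2 (Hoxb4 and Mecom) and 14.4%, and the HOX-PBX letters in 0 and 2.82%. These matches are a description of the sequence, and no binding was measured.

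Reads per library, worked back from the deposited values, numbered 8216167 to 13199736, and Rn45s, a ribosomal RNA precursor, held 43.3% to 48.6% of them. All 9 HSC marker genes examined (among them Procr, Slamf1, Kit, Fgd5 and Krt18) reached at least 1 FPKM in some library, with summed levels of 417 to 529 FPKM in control BM HSC, 503 to 557 in PHZ BM HSC and 588 to 602 in PHZ SP HSC. Procr, Ly6a and Ctnnal1 were wholly higher and Kit and Tie1 wholly lower in the spleen group than in control libraries, where 28.9% of all genes tested did not overlap. FPKM counts fragments per kilobase of gene, scaled for library depth, so comparing levels between genes rests on the gene lengths used, which are not stated. Levels of 8 of the 9 genes rested on 438 to 3918 reads per library, and Hoxb4 had 0 to 18.

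None of the 8 genes that could be tested differed between groups past the threshold, and for most of them the data also bounded the difference to less than 2-fold. A level of 1 FPKM in 2 libraries was required for testing, and 11347 genes met it, Hoxb4 not among them. The test was limma on log2(FPKM + 1) with Benjamini-Hochberg adjustment over these genes and a threshold of 0.05, and the fold changes below are on that scale, which understates the change of low genes. A gene was said to keep its level where the whole 95% interval of its fold change lay within 2-fold, with 1 FPKM and also with 0.1 FPKM added before taking logs. In bulk RNA, fewer cells that express a gene and less RNA per cell cannot be told apart.

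In PHZ BM HSC versus control BM HSC, 0 of the 8 genes had a limma adjusted p under 0.05, where 2.74% of all genes tested did, and the smallest adjusted p was 0.21 (Hoxa9). At an unadjusted p under 0.05 there were 2 (Hoxa9 and Erg), and 16.6% of all genes passed that limit. Levels were kept within 2-fold for 7 of the 8 (all but Runx1), against 41.8% of all genes tested and 66.5% of the 3655 genes whose mean level lay between those of the lowest and the highest of the 8, 6.52 and 30.4 FPKM. The log2 fold changes of the 8 ran from -0.05 to 0.51 with a median of 0.14, and the median of all genes was 0.01. The group ranges did not overlap for 3 of the 8 (Hoxa9, Runx1 and Erg, each higher in PHZ BM HSC), where 23.9% of all genes did not overlap.

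In PHZ SP HSC versus control BM HSC, 0 of 8 had a limma adjusted p under 0.05 (background, the share of all genes tested, 0.758%), the smallest being 0.341 for Meis1, and 0 had an unadjusted p under 0.05 (background 15.8%). All 8 were kept within 2-fold, against 35.1% of all genes and 59.4% of genes of like level. Ranges did not overlap for 2 (Meis1 and Hoxa9, both higher in the spleen group), with a background of 28.9%. Log2 fold changes lay between -0.23 and 0.35, with a median of 0.11.

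In PHZ SP HSC versus PHZ BM HSC, again 0 of 8 had a limma adjusted p under 0.05 (background 0.978%), the smallest being 0.548 for Runx1, and 0 an unadjusted p under 0.05 (background 13.5%). Levels of 7 of 8 were kept within 2-fold (all but Runx1), against 36.1% of all genes and 61.1% of genes of like level. Meis1 was higher in both spleen libraries than in any PHZ BM library and Runx1, Erg and Etv6 were lower, so ranges did not overlap for 4 genes, where the background was 34.8%. Log2 fold changes lay between -0.39 and 0.20, with a median of -0.20. The 3 comparisons share libraries in pairs and are therefore not independent of each other.

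**Figure D1:**
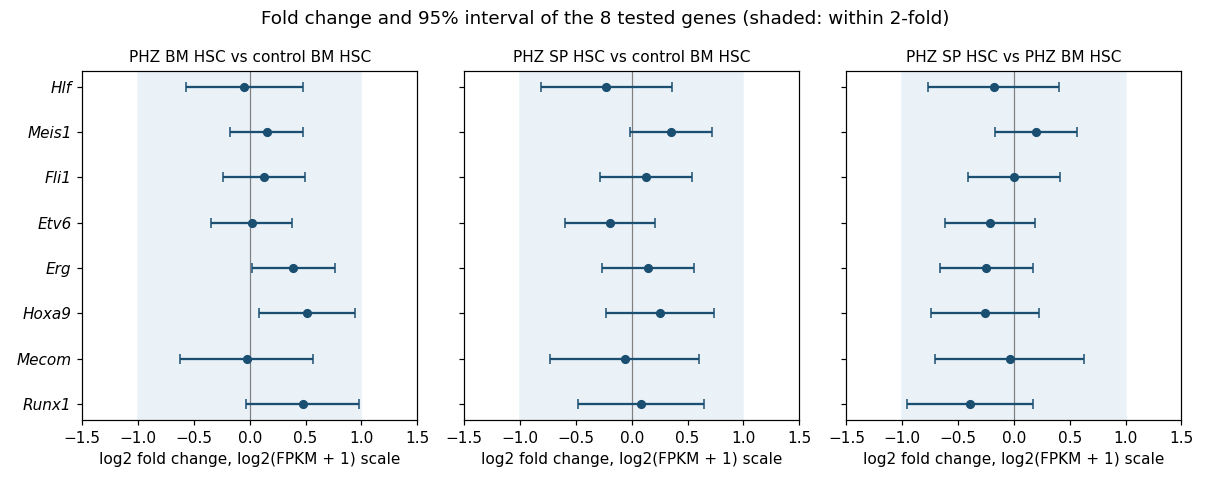
Log2 fold change on the log2(FPKM + 1) scale (horizontal axis) of the 8 tested transcription factor genes in the 3 comparisons, points with 95% intervals from limma, ordered by mean level. Shading marks changes of less than 2-fold; each interval lies inside it, those of Runx1 reaching 0.98 in PHZ BM HSC versus control BM HSC and -0.95 in PHZ SP HSC versus PHZ BM HSC.

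By level in FPKM, the genes fell into 3 tiers. Hlf (30.4 ± 6.65 FPKM, mean ± SD, n = 8 libraries), Meis1 (29.8 ± 3.63), Fli1 (26.8 ± 2.83), Etv6 (26.4 ± 3.17), Erg (22.5 ± 3.58) and Hoxa9 (18.4 ± 4.22) formed the upper tier. Mecom (6.82 ± 1.77) and Runx1 (6.52 ± 1.53) made up the middle one, and Hoxb4 (0.316 ± 0.21) stood alone. The gap between the upper and the middle tier depends on gene length and is not seen in reads. Mecom had 606 to 997 reads per library and Runx1 504 to 1184, against 625 to 1140 for Erg and 438 to 875 for Hoxa9. Their annotated exon bases (GENCODE) number 12427 and 12025, against 3466 and 5580. Neighbours within the upper tier overlapped over the 8 libraries, and so did Mecom and Runx1, whereas the lowest Hoxa9 library lay above the highest Mecom library and every Runx1 library above every Hoxb4 library. Erg exceeded Hoxa9 in 8 of 8 libraries although their ranges overlapped. Hlf led the order in both marrow groups, and Meis1 led it in PHZ SP HSC, where its lower library lay above both libraries of Fli1, the next in order.

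**Figure D2:**
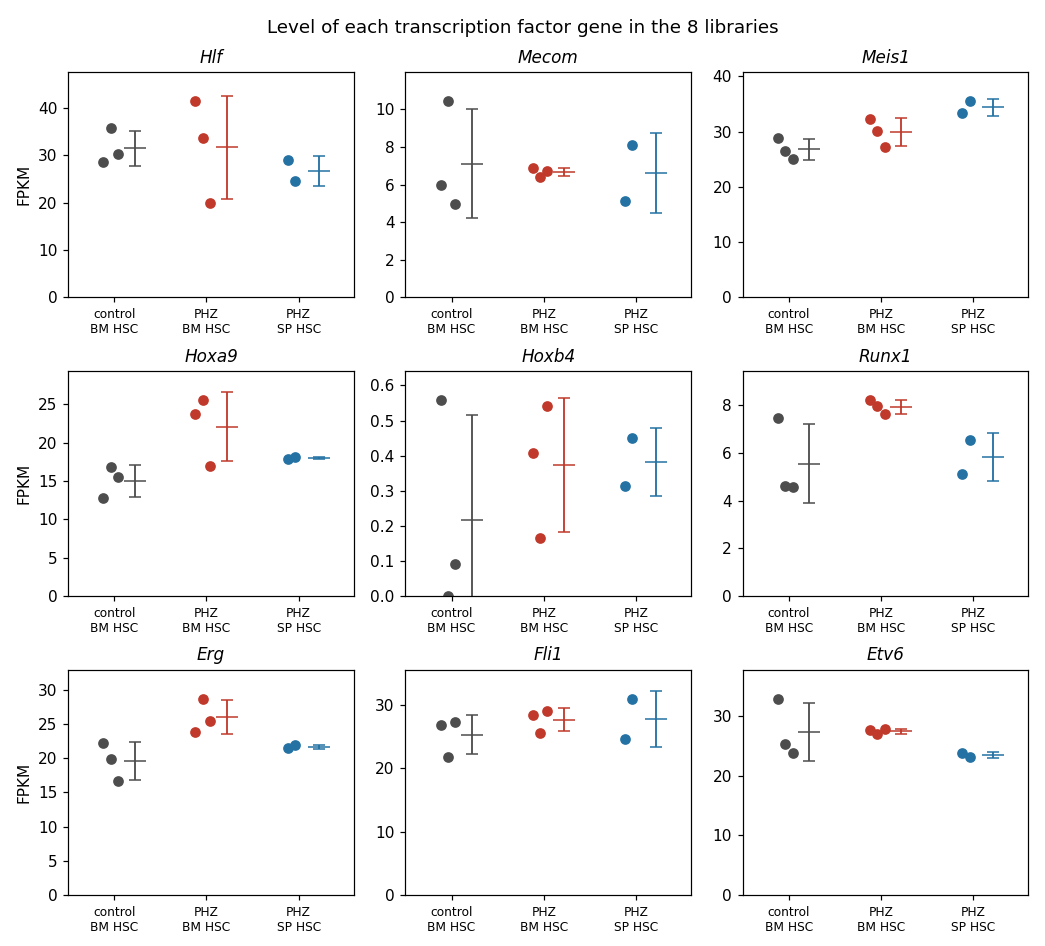
FPKM (vertical axes, each starting at 0 and scaled to its gene) of the 9 genes in the 8 libraries, 1 point a library, with the group mean and SD (n = 3, 3 and 2) beside the points; the lower end of the control bar of Hoxb4 falls below 0 and is not drawn. PHZ BM HSC points of Runx1, Erg and Hoxa9 lie above all control points, while all 3 of Etv6 lie within the control range and those of Hlf spread from below it to above it.

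Hlf (Entrez gene 217082, chr11:90336535-90390917, minus strand) was measured at 28.6, 35.7 and 30.2 FPKM in the 3 control BM HSC libraries, at 41.4, 33.7 and 19.9 in PHZ BM HSC and at 29.0 and 24.5 in PHZ SP HSC. All 3 groups overlapped, and PHZ BM HSC held both the highest and the lowest library. The group means were 31.5 ± 3.71, 31.7 ± 10.9 and 26.7 ± 3.16 FPKM. The log2 fold change, taken between means of log values, was -0.05 in PHZ BM HSC (95% interval -0.57 to 0.48), opposite in sign to the difference of the FPKM means, and -0.23 in PHZ SP HSC (-0.81 to 0.36), both against control BM HSC. Replicate 3 of PHZ BM HSC set much of the first value: without it the log2 fold change was 0.24. Over the 8 libraries Hlf had a coefficient of variation of 21.9%, and of 34.3% within PHZ BM HSC alone.

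Mecom (Entrez gene 14013, chr3:29951296-30509759, minus strand) had 5.98, 10.4 and 4.95 FPKM in control BM HSC, 6.87, 6.41 and 6.71 in PHZ BM HSC and 5.12 and 8.11 in PHZ SP HSC. The PHZ BM HSC libraries, with a coefficient of variation of 3.5%, lay inside the control range, whose highest library was replicate 2. Log2 fold changes against control BM HSC were -0.03 (-0.62 to 0.57) in PHZ BM HSC and -0.06 (-0.73 to 0.60) in PHZ SP HSC. Leaving out control replicate 2 turned both to positive values, 0.25 and 0.21. Annotated Mecom transcripts include long and short products of different function, which a value per gene does not separate.

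Of the homeodomain factors, Meis1 (Entrez gene 17268, chr11:18880428-19019651, minus strand) had 28.8, 26.5 and 25.01 FPKM in control BM HSC, 32.3, 30.1 and 27.2 in PHZ BM HSC and 33.3 and 35.5 in PHZ SP HSC. Both spleen libraries were above all 6 marrow libraries, while the 2 marrow groups overlapped. Its log2 fold change was 0.15 (95% interval -0.18 to 0.48) in PHZ BM HSC and 0.35 (-0.02 to 0.72, adjusted p = 0.341) in PHZ SP HSC versus control BM HSC. Gm37818, on the same strand, covers 9.77% of the exon bases of Meis1, and the antisense gene Gm16140 covers 8.51%. Strand was not stated for the counting, so a share of these reads could belong to either.

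Hoxa9 (Entrez gene 15405, chr6:52223097-52227370, minus strand) had 12.8, 16.8 and 15.6 FPKM in control BM HSC, 23.8, 25.6 and 17.0 in PHZ BM HSC and 17.9 and 18.1 in PHZ SP HSC. All 5 libraries of anemic mice were above all 3 control libraries, though replicate 3 of PHZ BM HSC passed the highest control by little. The difference was the largest among the 8 genes with 1 FPKM added, but not with 0.1 FPKM added, where Runx1 had 0.544 and Hoxa9 0.537. On the first scale the log2 fold change was 0.51 ± 0.20 (SE) in PHZ BM HSC, or 1.43-fold on this scale (95% interval 1.06 to 1.93), with an adjusted p of 0.21. In PHZ SP HSC it was 0.25 ± 0.22 (adjusted p = 0.62). With 0.1 FPKM added, the upper end of the first interval was 0.99, just inside the 2-fold limit, and it left that limit under 9 of 18 other settings.

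Hoxb4 (Entrez gene 15412, chr11:96318267-96321638, plus strand) was near the lower limit of detection, with 14, 0 and 3 reads in control BM HSC, 11, 4 and 18 in PHZ BM HSC and 9 and 12 in PHZ SP HSC. These reads correspond to 0.558, 0 and 0.0909 FPKM, 0.409, 0.166 and 0.543 FPKM, and 0.314 and 0.449 FPKM. Summed, 17 of 30284510 control reads (exact Poisson 95% interval 9.9 to 27.2), 33 of 32240584 (22.7 to 46.3) and 21 of 21557983 (13.0 to 32.1) fell on it. These intervals cover counting error only. A difference between groups was not detectable at this depth, and Hoxb4 counts neither among the genes that kept their level nor among those that did not.

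Runx1 (Entrez gene 12394, chr16:92601466-92826074, minus strand) had 7.46, 4.64 and 4.57 FPKM in control BM HSC, 8.22, 7.98 and 7.62 in PHZ BM HSC and 5.14 and 6.55 in PHZ SP HSC. The 3 PHZ BM HSC libraries lay close together and above the other 5, and control replicate 1 stood apart from the other 2 controls. The log2 fold change was 0.47 ± 0.23 (95% interval -0.03 to 0.98, adjusted p = 0.328) in PHZ BM HSC versus control BM HSC, 0.08 (-0.48 to 0.65) in PHZ SP HSC versus control BM HSC, and -0.39 (-0.95 to 0.17, adjusted p = 0.548) in PHZ SP HSC versus PHZ BM HSC. With 0.1 FPKM added the first and last intervals reached 1.118 and -1.086, beyond 2-fold, so that a change of that size in either was not bounded by these libraries. Reads of the distal and proximal starts, the latter printed above, are summed in the value per gene.

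Among the ETS factors, Erg (Entrez gene 13876, chr16:95359169-95586600, minus strand) had 22.3, 19.9 and 16.7 FPKM in control BM HSC, 23.8, 28.7 and 25.4 in PHZ BM HSC and 21.5 and 21.9 in PHZ SP HSC. The PHZ BM HSC libraries were above all others, and the spleen libraries fell inside the control range. Its log2 fold change in PHZ BM HSC versus control BM HSC was 0.39 ± 0.17 (95% interval 0.02 to 0.76, adjusted p = 0.272), and 0.14 (-0.27 to 0.56) in PHZ SP HSC.

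Fli1 (Entrez gene 14247, chr9:32422204-32543432, minus strand), the closest relative of Erg, had 26.9, 21.8 and 27.3 FPKM in control BM HSC, 28.4, 25.6 and 29.0 in PHZ BM HSC and 24.7 and 31.0 in PHZ SP HSC. All groups overlapped, and over the 8 libraries its coefficient of variation of 10.5% was the lowest of the 9 genes. Log2 fold changes against control BM HSC were 0.13 in both PHZ BM HSC (-0.24 to 0.49) and PHZ SP HSC (-0.28 to 0.54).

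Etv6 (Entrez gene 14011, chr6:134035700-134270158, plus strand), an ETS repressor that HSCs need to survive in adult marrow, had 32.9, 25.4 and 23.8 FPKM in control BM HSC, 27.6, 27.0 and 27.8 in PHZ BM HSC and 23.9 and 23.1 in PHZ SP HSC. PHZ BM HSC libraries lay inside the control range, and both spleen libraries lay below them. Its log2 fold change was 0.02 (-0.35 to 0.38) in PHZ BM HSC and -0.20 (-0.60 to 0.21) in PHZ SP HSC versus control BM HSC, and -0.21 (-0.62 to 0.19) between the PHZ groups.

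Intervals narrowed with level. In PHZ BM HSC versus control BM HSC they were 0.661 to 0.867 log2 units wide for Meis1, Etv6, Fli1, Erg and Hoxa9, and 1.05 for Hlf, 1.01 for Runx1 and 1.19 for Mecom, with a median of 1.17 over all genes tested. Hlf was thus measured less tightly than the other genes of its level.

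**Figure D3:**
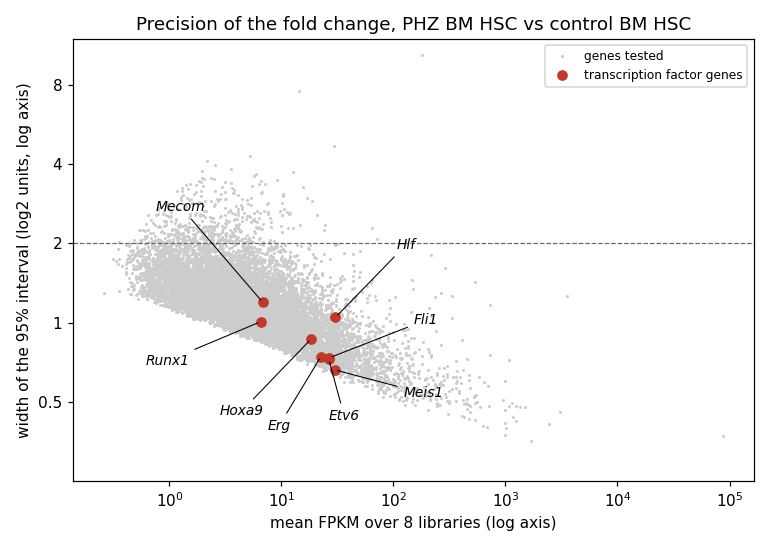
Width of the 95% interval of the log2 fold change in PHZ BM HSC versus control BM HSC (vertical axis, log) against mean FPKM over the 8 libraries (horizontal axis, log) for the 11347 genes tested (grey) and the 8 transcription factor genes (red). The dashed line at 2 is the widest an interval can be and still fit within 2-fold in both directions; all 8 genes lie below it, Mecom at 1.19 and Hlf at 1.05.

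Other genes that followed the same pattern over the 8 libraries were named as a description, by Pearson's r of log2(FPKM + 1), n = 8, over libraries that share group, depth and preparation. The closest were Irf1 (r = 0.959) and Elmo3 (0.953) for Hlf, Prss41 (0.943) and Ggps1 (0.925) for Mecom, Rab5b (0.974) and Samhd1 (0.955) for Meis1, and Sash3 (0.972) and Kctd13 (0.967) for Hoxa9. For Runx1 they were Art4 (0.971) and Ubl3 (0.969), for Erg Agap3 (0.945) and Fam3a (0.934), for Fli1 Zfp944 (0.937) and Rsad1 (0.936), and for Etv6 Bag6 (0.965) and Coa7 (0.953). Irf1 had 37.6, 35.0 and 20.1 FPKM in the PHZ BM HSC libraries, the same order as Hlf. Prss41 was near the lower limit of detection, at 0 FPKM in control replicate 1 and spleen replicate 1. It reached 1 FPKM only in control replicate 2 and spleen replicate 2, the libraries where Mecom was highest, so its r rests largely on them. Among the 8 tested genes themselves the highest r was 0.84, between Runx1 and Erg, and the lowest -0.48, between Hlf and Fli1.

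Partners and relatives of these factors were then counted in the same test. Of 11 complex partners (Cbfb, PBX family members, Pknox1 and the Gata2, Tal1, Lyl1, Lmo2 and Ldb1 group), 1 was called higher in PHZ BM HSC versus control BM HSC, 0 in PHZ SP HSC versus control BM HSC (4 at an unadjusted p under 0.05, 0 with voom), and 1 lower in PHZ SP HSC versus PHZ BM HSC. Of all genes tested, 2.74%, 0.758% and 0.978% were called in these comparisons, and 15.8% had an unadjusted p under 0.05 in the second. Median log2 fold changes of the 11 were 0.07, -0.05 and -0.22, beside 0.01, -0.0012 and -0.02 for all genes tested. The first was Gata2, a zinc finger factor that HSCs need, with 41.3, 47.7 and 36.2 FPKM in control BM HSC, 75.8, 86.3 and 66.7 in PHZ BM HSC and 58.0 and 72.9 in PHZ SP HSC. All 5 libraries of anemic mice exceeded all controls, and the log2 fold change was 0.86 ± 0.16 (limma adjusted p = 0.018) in PHZ BM HSC and 0.64 ± 0.18 (adjusted p = 0.127) in PHZ SP HSC. The second was Ldb1, which bridges LMO2 complexes on distant sites, with 14.97, 13.0 and 16.8, then 16.8, 16.4 and 13.4, then 7.92 and 5.90 FPKM in the same order of groups. Its spleen libraries were below all 6 marrow libraries, with a log2 fold change of -1.07 ± 0.22 (adjusted p = 0.0496) against PHZ BM HSC and -1.01 ± 0.22 (adjusted p = 0.0614) against control BM HSC. The Gata2 call was lost under 5 of 18 other settings, namely without the trend and robust options, without control replicate 1 or 3, and without PHZ BM HSC replicate 1 or 2 (adjusted p up to 0.112). The Ldb1 call was lost under 13 of 18 other settings, among them leaving out any 1 library except control replicate 1 (adjusted p up to 0.214). Cbfb, the Runx1 partner, had a log2 fold change of -0.32 (limma adjusted p = 0.557) in PHZ BM HSC versus control BM HSC, and Pbx2 one of -0.81 (0.157).

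Of 24 family relatives (PAR bZIP, PRDM, MEIS, HOX, RUNX and ETS genes), 21 were tested and 0 passed with limma in any of the 3 comparisons, and voom called 0, 0 and 1 (Elf1). At an unadjusted p under 0.05 there were 2, 5 and 6 of the 21, against 16.6%, 15.8% and 13.5% of all genes tested. Their median log2 fold changes were 0.09, -0.07 and -0.06. Those with the smallest p in PHZ BM HSC versus control BM HSC were Meis3 (log2 fold change 0.84, limma adjusted p = 0.147) and Nfil3 (0.88, 0.291). They were Nfil3 (1.71, 0.0976) and Dbp (-0.98, 0.114) in PHZ SP HSC versus control BM HSC, then Elf1 (-0.83, 0.0567) and Dbp (-0.93, 0.15) in PHZ SP HSC versus PHZ BM HSC. Elf1, an ETS factor, had 17.6, 16.4 and 16.8 FPKM in control BM HSC, 20.6, 20.2 and 21.0 in PHZ BM HSC and 11.3 and 10.9 in PHZ SP HSC, with no overlap between any 2 groups. The Nfil3 values depended on the processing, running from 0.49 to 2.78 over the alternatives in PHZ BM HSC versus control BM HSC, with 0 of 17 calling it. For PHZ SP HSC versus control BM HSC they ran from 1.33 to 3.84, the highest with voom, and 1 of 17 called it (2.17 without control replicate 2, limma adjusted p = 0.0331).

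Of 22 other HSC regulators, 19 were tested, with medians of 0.15, -0.04 and -0.02 in the 3 comparisons. The shares of all genes tested that were called in them were 2.74%, 0.758% and 0.978%. Egr1, an immediate early factor that restrains HSC division, was the 1 called in PHZ BM HSC versus control BM HSC (4.52 ± 1.69 to 25.4 ± 7.61 FPKM, n = 3 each, log2 fold change 2.27, limma adjusted p = 0.00368). It was also the 1 called lower in PHZ SP HSC versus PHZ BM HSC (3.05 ± 1.47 FPKM in spleen, n = 2, log2 fold change -2.71, limma adjusted p = 0.00605). Without replicate 2 of PHZ SP HSC, that adjusted p was 0.0834. Nkx2-3, a homeobox factor, was the 1 called in PHZ SP HSC versus control BM HSC, at 44.9 ± 4.48 against 21.96 ± 2.47 FPKM (log2 fold change 1.001, adjusted p = 0.0392), a call lost under 10 of 18 other settings, among them leaving out control replicate 2 or 3, PHZ BM HSC replicate 1 or 2, or either spleen library (adjusted p up to 0.165).

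Of 17 lineage factors, 15 were listed and 10 tested, with medians of 0.40, 0.46 and -0.09 (2.74%, 0.758% and 0.978% of all genes tested were called in these comparisons). Spi1, which directs myeloid and B cell fates, was called in PHZ BM HSC versus control BM HSC, at 47.6 ± 4.23 against 28.0 ± 3.63 FPKM (log2 fold change 0.75, limma adjusted p = 0.0268), a call lost under 6 of 18 other settings, namely without the trend and robust options and without any 1 marrow library other than control replicate 3 (adjusted p up to 0.113). Klf1, the erythroid factor, was called in PHZ SP HSC versus control BM HSC, at 9.33 ± 1.11 against 1.72 ± 1.18 FPKM (log2 fold change 2.01, adjusted p = 0.0361), a call lost under 9 of 17 other settings, among them leaving out control replicate 1 or 2, PHZ BM HSC replicate 2 or either spleen library (adjusted p up to 0.229). In PHZ SP HSC versus PHZ BM HSC 0 passed with limma or voom (4 at an unadjusted p under 0.05, against 13.5% of all genes tested), the smallest p being those of Klf1 (log2 fold change 1.56, adjusted p = 0.0709) and Nfe2 (-0.50, 0.16).

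Of 13 genes that these factors are known to regulate, 12 were tested, with medians of 0.04, -0.18 and -0.15. In the first comparison 1 of the 12 was called, beside 2.74% of all genes tested. Pf4, a platelet factor gene that Runx1 and the ETS factors act on, was called lower in PHZ BM HSC versus control BM HSC, at 32.6 ± 3.15 against 69.1 ± 7.67 FPKM (log2 fold change -1.06, limma adjusted p = 0.0424). The call was lost under 10 of 18 other settings, among them the absence of any 1 marrow library (adjusted p up to 0.166). In the other comparisons 0 passed with limma or voom (3 and 4 at an unadjusted p under 0.05, against 15.8% and 13.5% of all genes tested). Tek had a log2 fold change of 0.80 (limma adjusted p = 0.167) in PHZ SP HSC versus control BM HSC, and Pf4 one of 0.71 (adjusted p = 0.282) in PHZ SP HSC versus PHZ BM HSC. That Pf4 value rested on which spleen library was kept, at 0.15 when spleen replicate 2 was left out and 1.27 when spleen replicate 1 was.

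**Figure D4:**
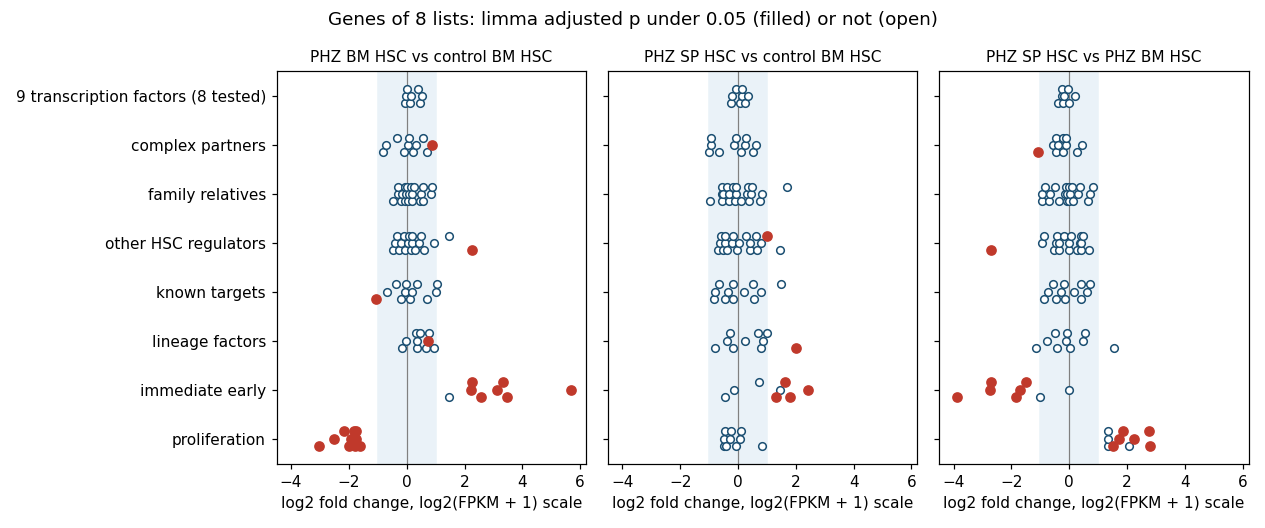
Log2 fold change on the log2(FPKM + 1) scale (horizontal axes) of the tested genes of 8 lists in the 3 comparisons, 1 point a gene; filled points have a limma adjusted p under 0.05, open ones do not, and the shaded band marks less than 2-fold. The 8 transcription factor genes span -0.05 to 0.51, -0.23 to 0.35 and -0.39 to 0.20 from left to right, while all 10 proliferation genes lie below -1.6 in the first panel.

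Other marker sets moved between the same libraries, and their part in the values above was not tested. In PHZ BM HSC versus control BM HSC, 10 of 10 proliferation genes were called lower and 7 of 8 immediate early genes, Egr1 among them, higher. The share of all genes tested that was called there was 2.74%. In PHZ SP HSC versus control BM HSC, 0 proliferation genes were called and 4 immediate early genes were called higher (background 0.758%). PHZ SP HSC versus PHZ BM HSC had 6 proliferation genes called higher and 6 immediate early genes called lower (background 0.978%). The summed level of the immediate early genes was 91.9 to 110 FPKM in control BM HSC, 740 to 923 in PHZ BM HSC and 222 to 256 in PHZ SP HSC, and that of the proliferation genes 144 to 237, 27.3 to 54.7 and 162 to 196. Neutrophil and erythroid markers were higher in the spleen libraries, 4 of 6 and 5 of 6 of them wholly above control BM HSC, where 28.9% of all genes tested did not overlap in either direction. The 6 neutrophil genes summed there to 1286 to 1649 FPKM against 315 to 643 in control BM HSC and 333 to 838 in PHZ BM HSC. The 6 listed erythroid genes, Klf1 among them, summed to 351 to 410 against 49.3 to 105 and 81.9 to 154. The 6 macrophage genes summed to 51.2 to 62.3 against 9.25 to 16.2 and 16.2 to 23.1, a sum made up mainly of Ctss (53.7 FPKM in PHZ SP HSC, group mean). Of these 6, 1 (Ctss) was wholly higher and 1 (C1qb, group means 0.0411 against 1.92 FPKM) wholly lower in the spleen group than in control libraries. Adgre1 and Csf1r of macrophages, Cd3e, Cd3g and Ncr1 of T and NK cells, Ebf1 of B cells and Gp1bb of megakaryocytes were under 1 FPKM in all 8 libraries. B cell genes summed to 26.8 to 50.6, 28.1 to 30.4 and 38.1 to 53.6 FPKM in control BM HSC, PHZ BM HSC and PHZ SP HSC. T and NK cell genes summed to 20.5 to 61.1, 31.1 to 48.4 and 42.6 to 50.9 in the same order. Nkg7 made up most of that sum, and 2 of the 6 genes were wholly higher in the spleen libraries than in each marrow group taken alone. Among all genes tested, 28.9% did not overlap, in either direction, between spleen and control libraries. Between the 2 PHZ groups that share was 34.8%. Klrb1c was wholly higher in spleen than in both marrow groups, with group means of 0.947, 2.57 and 16.6 FPKM. Megakaryocyte genes summed to 113 to 131, 80.7 to 100.1 and 85.4 to 138, and mast cell genes to 0.3 to 4.32, 4.45 to 7.32 and 3.18 to 7.47.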

How the data were processed

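RNA-seq of 8 libraries was analysed (SMART-Seq2 cDNA, Nextera XT libraries, no molecular identifiers). Per the study's methods and the submitters' processing notes, the authors mapped reads to mm10 with STAR and tested with DESeq2; the gene counter, annotation and strand setting are not given in the sources used here. The authors deposited FPKM, in 1 table per group, scaled separately per table; the marrow columns carry the name WBM and were taken as the sorted BM HSCs of the titles. The deposited DESeq2 tables (fold changes and p-values of PHZ SP HSC against each marrow group) were not used.

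FPKM values above 0 were whole multiples of 1 read's worth (108151 of 108151, within 0.001 read), so reads were recovered and all libraries rescaled with 1 set of median-of-ratios factors (largest change 1.05%). Genes in all 3 tables (15142) were kept for testing where they reached 1 FPKM in 2 libraries (11347). limma 3.58.1 in R 4.3.3 was run on log2(FPKM + 1), trend and robust options, all 8 libraries in 1 fit, two-sided, with p adjusted by Benjamini-Hochberg over the 11347 genes, and was tested on simulated data. Recovered reads of 8216167 to 13199736 per library set the precision; with 2 or 3 libraries a group, intervals are wide. Alternatives were other pseudocounts, filters and scalings, voom on recovered reads, a replicate block and leaving out each library. Coordinates and Entrez IDs come from RefSeq (GRCm38.p6), exon overlaps from GENCODE M21, promoter windows from RefSeq. Python 3.11.15, pandas 2.3.3 and matplotlib 3.10.9 were used.

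The genes, the lists of partners, relatives, regulators, targets and markers, and the comparisons were chosen with earlier results of these data known. All 9 genes were named whatever their values, with the 2 tested genes of highest r for each, and from each list, per comparison, every gene past the threshold up to 5, or the 2 of smallest p where none passed. Some values that this rule or the lists would give are not reported here.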

Additional observations from a re-analysis of the deposited data

How the results depend on the processing

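The count of transcription factor genes past the threshold was 0 of 8 in each comparison (0 of 9 with no filter) under all 18 alternatives, voom on recovered reads included (smallest adjusted p 0.109 without replicate 3 of PHZ BM HSC). The count kept within 2-fold ran, leaving out each library in turn, from 6 to 7 in PHZ BM HSC versus control BM HSC, from 5 to 8 in PHZ SP HSC versus control BM HSC (5 without replicate 1 of PHZ SP HSC, which took out Hlf, Mecom and Runx1) and from 5 to 8 in PHZ SP HSC versus PHZ BM HSC; where that leaves 1 spleen library, it is assumed to vary like the other groups. The direction turned in 9 of the 24 values of the 8 genes, each with a log2 fold change between -0.18 and 0.13. In PHZ BM HSC versus control BM HSC the log2 fold change of Mecom was 0.018 with voom and that of Etv6 -0.048 with equal totals, and that of Fli1 in PHZ SP HSC versus PHZ BM HSC was -0.0015 with equal totals and -0.0064 with voom. Leaving out each library gave, in PHZ BM HSC versus control BM HSC, -0.27 to 0.24 for Hlf, -0.22 to 0.25 for Mecom and -0.072 to 0.15 for Etv6. In PHZ SP HSC versus control BM HSC it gave -0.35 to 0.22 for Mecom, -0.067 to 0.28 for Runx1 and -0.027 to 0.29 for Fli1, and in PHZ SP HSC versus PHZ BM HSC -0.47 to 0.036 for Hlf, -0.32 to 0.25 for Mecom and -0.15 to 0.16 for Fli1. The cause was not tested.

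Correlations of deviations from the group mean ran from -0.0079 to 0.06 between libraries of equal replicate number, and from -0.064 to 0.069 between the others. With 2 spleen libraries the deviations mirror each other by construction. These values therefore cannot show whether marrow and spleen libraries came from the same mice. With the number as a replicate block, 0 of the 8 genes passed in each comparison, and 294, 73 and 112 of all genes did in place of 311, 86 and 111. The block kept 6, 8 and 7 of the 8 within 2-fold, in place of 7, 8 and 7. Over all genes, the 311 calls in PHZ BM HSC versus control BM HSC fell to 182 without control replicate 1, and to 119 and 115 without PHZ BM HSC replicate 1 or 2. The 86 calls in PHZ SP HSC versus control BM HSC fell to 43 without control replicate 2, to 44 and 33 without PHZ BM HSC replicate 1 or 2, and to 14 and 27 without spleen replicate 1 or 2. The 111 calls in PHZ SP HSC versus PHZ BM HSC fell to 20 and 30 without PHZ BM HSC replicate 1 or 2, and to 7 and 6 without spleen replicate 1 or 2. Without a filter on low values there were 205, 46 and 62 calls, without the trend and robust options 204, 61 and 63, and with voom 259, 74 and 65. The count in PHZ SP HSC versus control BM HSC was 39 with 0.1 FPKM added and 42 with the other group left out. Hoxb4 had at most 18 reads in a library, and groups held 2 or 3 libraries.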
